A study of Mus musculus with 2 samples.

Results

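Transcripts of 10 genes of glycolysis and glucose entry were followed through the leukocytes of pancreatic islets. The genes were Slc2a1, Hk2, Aldoa, Tpi1, Gapdh, Pgk1, Pgam1, Eno1, Pkm and Ldha. They were chosen by name, and all 10 were found by exact symbol among the 27998 genes of the deposited tables. Leukocytes were sorted by CD45.1 from islets of female NOD/ShiLtJ mice at 12 weeks and at 7 weeks of age, CD45.1 being the form of this leukocyte surface protein that the strain carries. NOD mice are an inbred strain that develops autoimmune diabetes spontaneously. On build GRCm38 the genes lie at chr4:119108711-119137983 (Slc2a1, +), chr6:82725025-82774454 (Hk2, -), chr7:126795234-126800751 (Aldoa, -), chr6:124810586-124814296 (Tpi1, -), chr6:125161715-125166467 (Gapdh, -), chrX:106187100-106203699 (Pgk1, +), chr19:41911923-41918660 (Pgam1, +), chr4:150236721-150248879 (Eno1, +), chr9:59656368-59679375 (Pkm, +) and chr7:46841475-46855627 (Ldha, +). Each age is represented by 1 droplet library of the 10x Genomics Chromium 3' kit, and the labels do not give the number of mice behind a library. Every difference below is therefore between cells of these 2 libraries and was given no test. All intervals are exact 95% intervals that cover counting error only.

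Glycolysis splits glucose into pyruvate in the cytosol. Glucose enters the cell through transporters such as GLUT1, hexokinases trap it as glucose 6-phosphate, and the later enzymes of the path yield ATP and NADH, which lactate dehydrogenase recycles by turning pyruvate into lactate. Lymphocytes are known to turn to this path when they are activated and begin to divide, and inflammatory macrophages and dendritic cells also rely on it.

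The promoters of 4 of the genes are shown because their transcripts followed different patterns among the cells. Over all cells, Ldha and Tpi1 were higher in dividing cells in each class measured, Hk2 was highest in myeloid cells, and Slc2a1 had few UMIs in every class. Each window runs from 250 bases before to 50 after an annotated start (RefSeq, build GRCm38.p6), at chr7:46845554-46845853 (+) for Ldha, chr6:124814109-124814408 (-) for Tpi1, chr6:82774405-82774704 (-) for Hk2 and chr4:119108495-119108794 (+) for Slc2a1. Capitals mark ACGTG, the core of the sequence known to be bound by hypoxia-inducible factors, or its reverse complement CACGT, and CACGTG where both overlap.
Ldha: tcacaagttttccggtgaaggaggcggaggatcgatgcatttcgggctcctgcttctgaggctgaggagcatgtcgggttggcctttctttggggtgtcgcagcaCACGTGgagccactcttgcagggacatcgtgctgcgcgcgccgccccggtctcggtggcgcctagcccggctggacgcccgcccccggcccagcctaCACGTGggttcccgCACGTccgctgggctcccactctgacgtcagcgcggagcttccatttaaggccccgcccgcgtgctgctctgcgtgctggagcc
Tpi1: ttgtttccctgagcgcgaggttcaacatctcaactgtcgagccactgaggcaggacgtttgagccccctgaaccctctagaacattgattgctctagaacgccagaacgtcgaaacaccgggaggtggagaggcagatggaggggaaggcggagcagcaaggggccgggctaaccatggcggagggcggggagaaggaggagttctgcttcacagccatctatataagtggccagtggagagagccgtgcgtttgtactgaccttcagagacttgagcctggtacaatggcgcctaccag
Hk2: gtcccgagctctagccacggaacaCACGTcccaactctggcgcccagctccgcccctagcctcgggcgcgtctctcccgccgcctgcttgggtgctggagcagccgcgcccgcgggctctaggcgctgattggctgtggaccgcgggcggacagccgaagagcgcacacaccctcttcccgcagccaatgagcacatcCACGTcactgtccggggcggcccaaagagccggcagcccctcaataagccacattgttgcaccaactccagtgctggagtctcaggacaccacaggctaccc
Slc2a1: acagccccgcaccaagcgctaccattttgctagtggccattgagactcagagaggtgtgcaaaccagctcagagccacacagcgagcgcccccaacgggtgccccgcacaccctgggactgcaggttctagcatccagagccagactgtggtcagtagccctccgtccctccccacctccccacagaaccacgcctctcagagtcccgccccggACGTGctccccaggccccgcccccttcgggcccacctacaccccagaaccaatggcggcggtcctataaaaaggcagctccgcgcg
The Ldha window shown held 3 marked stretches, of which 2 were CACGTG, the E-box known to be bound by Myc proteins. The Hk2 window held 2, the Slc2a1 window 1 and the Tpi1 window none. A second annotated start window of Ldha, at chr7:46846832-46847131 (+), held no such stretch. Over 16 annotated start windows of the 10 genes, 9 held ACGTG on either strand, against 19.6% of 32851 windows of the same length. By gene, 8 of the 10 had such a window, against 5886 of 27025 genes. Of the 9 windows, 2 of Aldoa overlap and hold the same stretch. CACGTG was in 1 of the 16 windows, against 7.15% of all windows. A match describes these letters and is no evidence of binding.

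The 12 week library kept 2741 cells with a median of 4924 UMIs (unique molecular identifiers, each a counted transcript molecule), and the 7 week library 1099 cells with a median of 5636 UMIs. The libraries shared 2 cell barcodes. The 10 genes held 58933 UMIs at 12 weeks, 0.317% of the total, and 26283 UMIs at 7 weeks, 0.308%. Cells were classed by set UMI counts of Cd8a and Cd8b1, Cd4, Cd79a, Ncr1, and C1q or Cst3, and those meeting more than 1 rule were left out (119 at 12 weeks and 68 at 7 weeks). CD8 T cells were divided by the chemokine gene Ccl5, at 10 or more UMIs (Ccl5 high) or at most 3 (Ccl5 low). A cell counted as cycling with 2 or more UMIs over Mki67, Top2a, Birc5, Cdk1 and Rrm2. The classes carried their own markers: in cells not cycling, T cell markers summed to 3482 to 5185 CPM (UMIs per 1000000 UMIs of the class) in the T classes, B cell markers to 4144 and 3573 CPM in B cells at 12 and 7 weeks, NK cell markers to 3826 and 3669 CPM in Ncr1+ cells, and macrophage markers to 5467 and 5494 CPM in myeloid cells. The Ncr1+ class was mixed: T cell markers summed to 2951 CPM at 12 weeks and 2327 CPM at 7 weeks in it, with all 5 detected, and plasmacytoid dendritic cell markers to 685 and 233 CPM.

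In cells that were not cycling, different steps of the path were highest in different classes. Gapdh, Pkm, Ldha and Aldoa were highest in CD4 T or Ccl5 high CD8 T cells. Tpi1, Pgam1 and Eno1 were highest in the mixed class of Ncr1+ cells, and Hk2 in myeloid cells. B cells had the lowest Ldha, Pkm and Eno1 of the 6 classes at both ages. The levels are CPM of 3' UMIs, which are not scaled for transcript length, so each gene is compared among classes and not with other genes.

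Gapdh, which oxidizes glyceraldehyde 3-phosphate and makes NADH, had 1154 CPM in Ccl5 high CD8 T cells and 527 CPM in Ccl5 low CD8 T cells at 12 weeks, the highest and lowest of its classes. At 7 weeks its highest level was 1013 CPM in CD4 T cells and its lowest 494 CPM in B cells. In CD4 T cells it stood at 951 CPM (919 to 983) at 12 weeks. Gapdh levels are uncertain, because 88.0% of the 60-base stretches in the last 500 bases of its transcript also occur in other annotated genes. Of those 105 genes, 1 (Gm3839) was in the tables, with 14 UMIs at 12 weeks and 16 at 7 weeks. For Eno1 the share was 70.1%, and its copy Eno1b held 147 UMIs at 12 weeks and 112 at 7 weeks, so Eno1 levels are uncertain in the same way. For Pgk1 it was 5.22%, and for the other 7 genes 0.

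Ldha, which makes lactate from pyruvate, followed the same order at both ages from CD4 T cells down to B cells. CD4 T cells had 663 CPM of it (637 to 690) at 12 weeks and 639 CPM (603 to 677) at 7 weeks. B cells had 319 CPM (299 to 340) at 12 weeks and 224 CPM (193 to 257) at 7 weeks. The Ccl5 high CD8 T cells came second with 576 and 517 CPM, and their intervals overlapped those of Ncr1+ cells, next with 558 and 441 CPM. Ldha supplied at least 94.8% of the UMIs of Ldha and Ldhb, the subunit gene that favours the reverse reaction, in each of the 18 groups of class, state and age with 10 or more cells. Pkm, pyruvate kinase, which makes pyruvate and ATP, had 493 and 464 CPM in CD4 T cells and 256 and 183 CPM in B cells at 12 and 7 weeks. Aldoa, the aldolase that splits fructose bisphosphate, varied least among these, between 347 and 510 CPM at 12 weeks and between 292 and 446 CPM at 7 weeks.

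Tpi1, the isomerase that interconverts the products of aldolase, had 142 CPM (104 to 189) in Ncr1+ cells at 12 weeks and 155 CPM (119 to 198) at 7 weeks. Its next class, myeloid cells, had 114 CPM at 12 weeks and 81.1 CPM at 7 weeks, and the intervals of the neighbours overlapped at 12 weeks but not at 7 weeks. Pgam1, the mutase before enolase, was likewise highest in Ncr1+ cells, at 193 and 170 CPM. Eno1, enolase, reached 284 and 288 CPM there, but all its neighbours in the order overlapped at both ages. Pgk1, the first step to make ATP, was sparse, at 6.03 to 19.2 CPM at 12 weeks and 7.94 to 31.4 CPM at 7 weeks. The plot of levels by class shows all 10 genes.

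**Figure D1:**
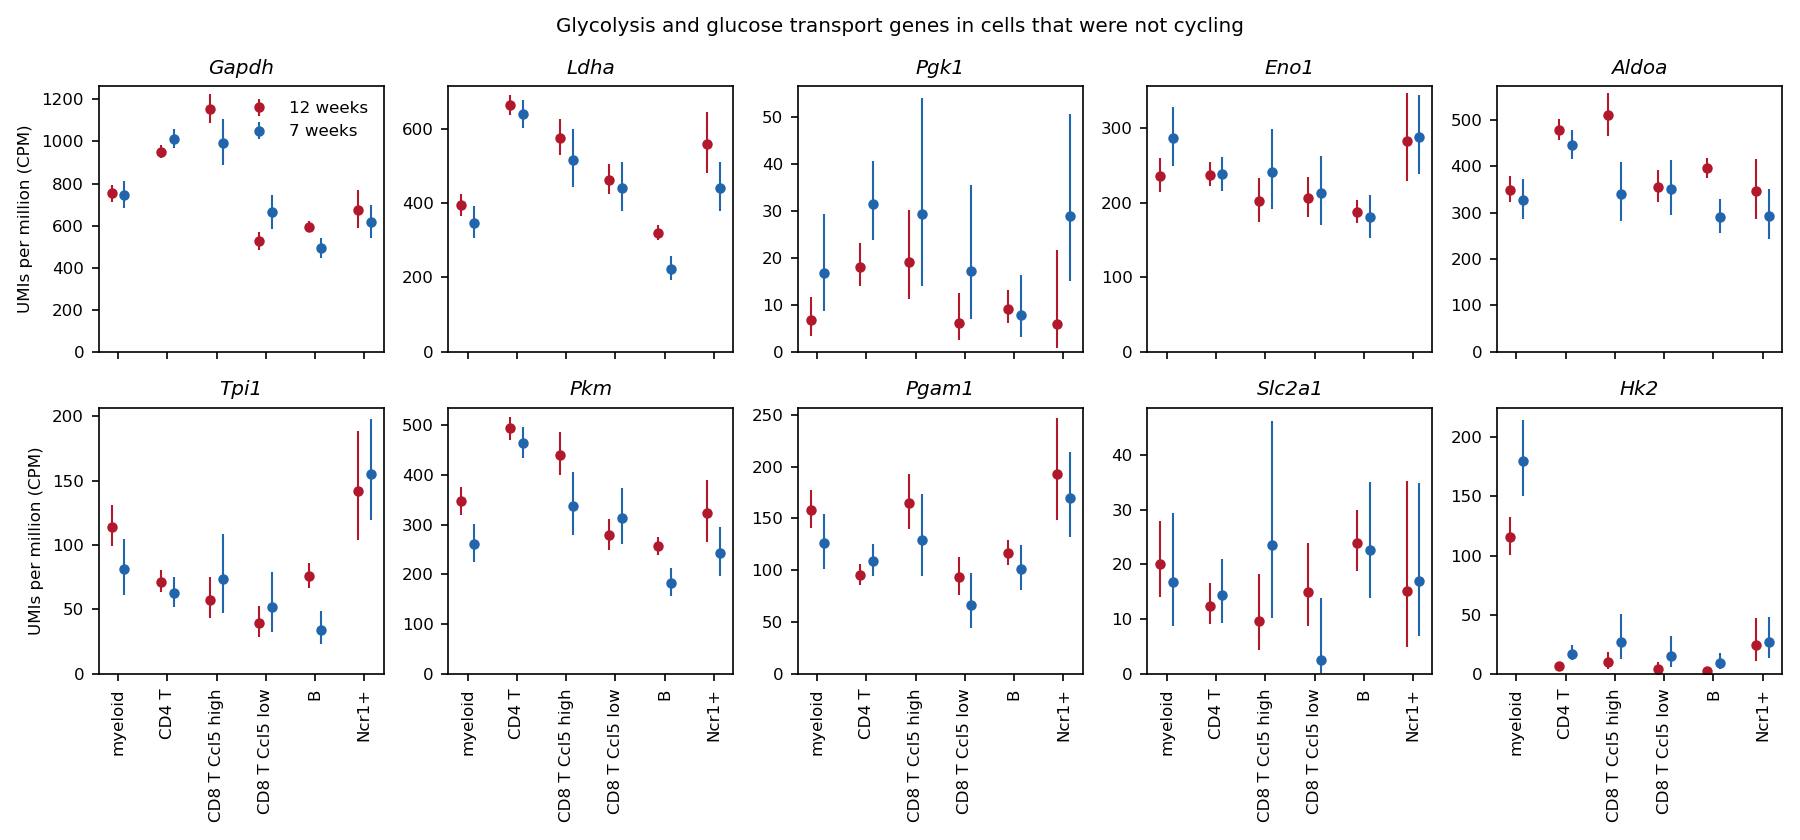
Level of each gene (UMIs per 1000000 of the class, linear axes from 0) in the 6 classes among cells not cycling, at 12 weeks (red) and 7 weeks (blue), with 1 point per library and exact 95% counting intervals. Hk2 stands at 116 and 180 CPM in myeloid cells and at 26.6 CPM or less in every other class, while Ldha is highest in CD4 T cells and lowest in B cells.

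The glucose transporter had few UMIs in every class. Slc2a1, which encodes GLUT1, had between 9.58 and 23.9 CPM at 12 weeks and between 2.47 and 23.5 CPM at 7 weeks over the 6 classes, and all neighbours in its order overlapped at both ages. In B cells it had 73 UMIs in 602 cells (23.9 CPM, 18.7 to 30.02) at 12 weeks and 20 UMIs in 156 cells (22.7 CPM, 13.9 to 35.05) at 7 weeks. In CD4 T cells it had 12.4 CPM (9.04 to 16.6) and 14.3 CPM (9.37 to 21.0). Of the joint UMIs of Slc2a1 and Slc2a3, the gene for the related transporter GLUT3, the share of Slc2a1 in CD4 T cells was 42.1% (32.6 to 52.0) at 12 weeks, beside 55.3% (40.1 to 69.8) at 7 weeks.

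Cycling cells gave more of their transcripts to the middle and late steps of glycolysis than cells of the same class that were not cycling. In CD4 T cells the 10 genes summed to 5581 CPM in 86 cycling cells and 3027 CPM in 713 others at 12 weeks, a ratio of 1.84 (1.79 to 1.90). At 7 weeks they summed to 4907 CPM in 43 cycling and 3034 CPM in 288 other CD4 T cells, a ratio of 1.62 (1.55 to 1.69). In Ccl5 high CD8 T cells the ratios were 1.84 (1.76 to 1.93) at 12 weeks and 1.96 (1.81 to 2.12) at 7 weeks. In B cells it was 2.58 (2.45 to 2.72) and in myeloid cells 1.63 (1.54 to 1.72), both at 12 weeks, where these classes had 21 and 26 cycling cells. Of the 1851 member UMIs of the cycling B cells, 1674 were in 10 cells of 12000 or more UMIs. Those had 5768 CPM (5495 to 6051) against 3935 CPM (3635 to 4253) in 11 other B cells of that depth. At 8000 to 12000 UMIs, 4 cycling B cells had 2505 CPM (2032 to 3056) and 24 others 2315 CPM (2121 to 2523). Without the 5 cells of each group with the most member UMIs the B cell ratio was 1.87 (1.71 to 2.03). The other classes had fewer than 10 cycling cells at either age, as had B and myeloid cells at 7 weeks, and were not compared.

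Gapdh, Tpi1, Eno1 and Pkm were at least 1.5-fold higher in cycling cells in all 6 of these comparisons when all cells were counted. In myeloid cells this rested on few cells: without the 5 cells of each group with the most member UMIs, which left 21 cycling and 142 others, the ratios were 1.44 (1.26 to 1.64) for Gapdh, 1.19 (0.808 to 1.71) for Tpi1, 1.12 (0.858 to 1.44) for Eno1 and 1.24 (1.01 to 1.51) for Pkm, and the summed ratio was 1.16 (1.08 to 1.26). With those cells left out, Eno1 also fell short of 1.5-fold in CD4 T cells and in B cells at 12 weeks. Tpi1 was then no longer counted as higher in Ccl5 high CD8 T cells at 7 weeks. Over all cells, Gapdh had 2102 CPM in cycling and 951 CPM in other CD4 T cells at 12 weeks, a ratio of 2.21 (2.10 to 2.33). At 7 weeks it had 1933 CPM in cycling and 1013 CPM in other CD4 T cells, with a ratio of 1.91 (1.77 to 2.06). The Gapdh ratio was largest in B cells, where 2079 CPM in cycling cells stood against 596 CPM in others (3.49, 3.20 to 3.80). Tpi1 had 234 CPM in cycling and 57.5 CPM in other Ccl5 high CD8 T cells at 12 weeks, a ratio of 4.07 (2.997 to 5.62), and its ratios elsewhere lay between 1.71 in myeloid cells and 3.27 in CD4 T cells at 12 weeks. Pkm ranged from 1.73 in CD4 T cells at 7 weeks to 2.95 in B cells. Eno1 ranged from 1.60 in CD4 T cells at 12 weeks to 2.09 in Ccl5 high CD8 T cells at 7 weeks.

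Pgam1 and Ldha passed 1.5-fold in most of the comparisons. Pgam1 had 337 CPM in cycling and 116 CPM in other B cells (2.90, 2.34 to 3.57), and it missed the mark in Ccl5 high CD8 T cells at 7 weeks, with 180 CPM in cycling cells, 129 CPM in others and an interval that included 1 (1.39, 0.933 to 2.10). Ldha had 1234 CPM in cycling and 576 CPM in other Ccl5 high CD8 T cells at 12 weeks (2.14, 1.93 to 2.38), and 976 CPM in cycling and 663 CPM in other CD4 T cells (1.47, 1.37 to 1.58). Ldha thus stayed just under the mark in CD4 T cells, also at 7 weeks (1.44, 1.297 to 1.60), when all cells were counted. Among CD4 T cells of 8000 to 15000 UMIs, both Ldha intervals included 1. The 12 week ratio there fell to 1.02 (0.883 to 1.18), and the 7 week ratio to 1.08 (0.856 to 1.36). At this depth and 12 weeks, Ldha kept 1.46 (1.19 to 1.80) in Ccl5 high CD8 T cells. Myeloid cells had 1.31 (0.987 to 1.71). Pgk1 had the 50 UMIs required for a count in CD4 T cells alone, with ratios of 1.57 (0.984 to 2.45) at 12 weeks and 1.79 (1.13 to 2.79) at 7 weeks. Both turned below 1 under an alternative with few UMIs, to 0.728 (0.0178 to 4.38) at 12 weeks with cells thinned to 2500 UMIs and to 0.923 (0.272 to 2.52) at 7 weeks in cells of 8000 to 15000 UMIs.

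Aldoa, Slc2a1 and Hk2 did not share this pattern. Aldoa passed 1.5-fold in 1 of 6 comparisons, Ccl5 high CD8 T cells at 7 weeks (1.65, 1.31 to 2.10), and its ratios elsewhere were 0.881 to 1.31. Slc2a1 had 8 UMIs in cycling and 45 in other CD4 T cells at 12 weeks, 7.61 CPM against 12.4 CPM, a ratio of 0.614 whose interval (0.250 to 1.32) included 1. Hk2 in myeloid cells had 117.5 CPM in cycling and 115.8 CPM in other cells at 12 weeks (1.01, 0.735 to 1.38). In B cells it had 17 UMIs in 21 cycling cells (47.0 CPM) and 8 UMIs in 602 others (2.62 CPM), a ratio of 18.0 (7.35 to 48.1), and 5 cells held 88.2% of the UMIs of the cycling group. Those cycling B cells also carried plasma cell markers (Jchain, Xbp1, Mzb1 and Sdc1) at a summed 5061 CPM against 951 CPM in other B cells, with all 4 detected, and the part of this difference in the Hk2 and other ratios was not tested. In cycling myeloid cells the 6 macrophage markers, all detected, summed to 2331 CPM against 5467 CPM in other myeloid cells at 12 weeks, and the 5 T cell markers, all detected, to 474 CPM against 86.7 CPM. The part of these markers in the myeloid ratios was not tested either.

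In counts, 6 members were at least 1.5-fold higher and 1 lower (Slc2a1) of 9 with 50 UMIs in CD4 T cells at 12 weeks, where 16.7% of all genes so measured were higher and 14.8% lower. At 7 weeks 6 of 8 were higher and none lower in CD4 T cells, beside 14.9% and 15.1% of genes. In Ccl5 high CD8 T cells 6 of 7 were higher and none lower at either age, beside 24.4% and 13.5% of genes at 12 weeks and 31.3% and 8.84% at 7 weeks. Both B and myeloid cells had 6 of 8 members higher and none lower, beside 28.7% and 23% of genes in B cells and 14.9% and 16.1% in myeloid cells. Without the 5 highest cells of each group none of 8 was higher and 1, Aldoa, lower in myeloid cells, beside 10.6% and 16.8% of genes, and with cells weighted equally 1 member passed. Over all classed cells 7 of 10 were higher and none lower at 12 weeks (17.9% of genes higher and 18.8% lower), and 7 higher and 1 lower, Slc2a1, at 7 weeks (15.6% and 15.5%). The median log2 ratio of the members with 50 UMIs lay between 0.67 in CD4 T cells at 12 weeks and 1.36 in B cells, and that of all genes between 0.01 and 0.27 over the same 6 comparisons.

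**Figure D2:**
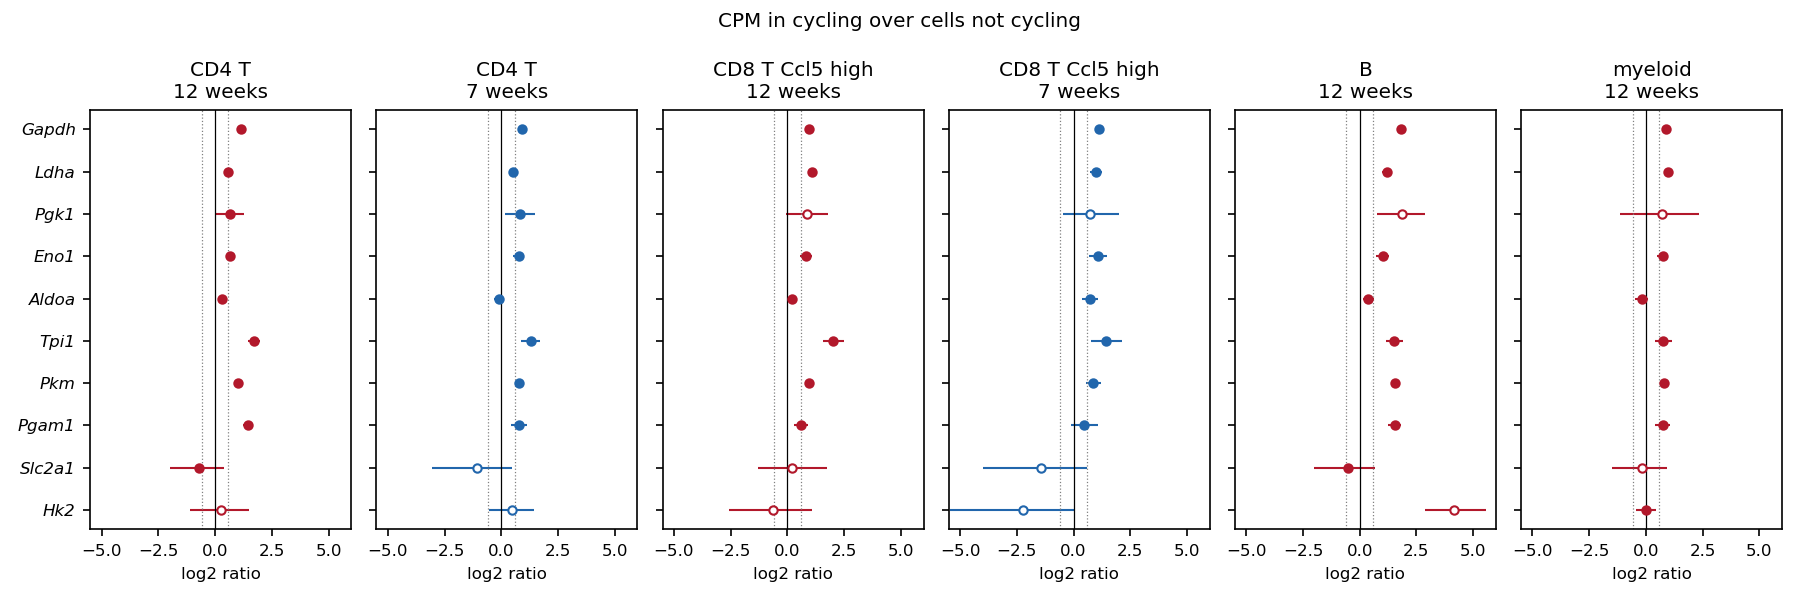
Log2 ratio of CPM in cycling over other cells of the class, per gene (rows) and class and age (panels, red for 12 weeks and blue for 7 weeks), with exact 95% counting intervals. Filled points have 50 or more UMIs over both groups, dotted lines mark 1.5-fold either way, and Gapdh, Eno1, Tpi1 and Pkm lie past the upper line in all 6 comparisons, with all cells counted, while Aldoa does so in 1 and no filled point of Slc2a1 does.

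Cycling cells also held far more UMIs, and in CD4 T cells the share of the members was higher in deep cells whether or not they were cycling. Cycling CD4 T cells had a median of 10114.5 UMIs against 4504 in the others at 12 weeks, and 12160 against 5429 at 7 weeks, so that a cell held 68.2 member UMIs on average when cycling and 15.4 otherwise at 12 weeks. Among CD4 T cells that were not cycling at 12 weeks, the summed level was 2622 CPM in cells under 4000 UMIs, 3453 CPM at 6000 to 8000, 4358 CPM at 8000 to 12000 and 4792 CPM (4425 to 5181) in 9 cells of 12000 or more. Cycling CD4 T cells of 8000 to 12000 UMIs had 4299 CPM (3996 to 4619), and those of 12000 or more 6253 CPM (6073 to 6438).

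Within the same range of depth the difference was smaller. In cells of 8000 to 15000 UMIs the summed ratio was 1.19 (1.12 to 1.26) in CD4 T cells at 12 weeks, 1.26 (1.14 to 1.38) at 7 weeks, 1.24 (1.13 to 1.36) in Ccl5 high CD8 T cells and 1.20 (1.07 to 1.34) in myeloid cells at 12 weeks. In CD4 T cells of this depth 1 of 7 members with 50 UMIs was past 1.5-fold higher at 12 weeks (Pgam1) and none lower, beside 10.8% and 6.70% of genes. At 7 weeks 2 of 6 were higher (Gapdh and Eno1) and 1 lower (Aldoa), beside 14.2% and 12.5% of genes. In Ccl5 high CD8 T cells at 12 weeks 1 of 6 was higher (Pkm) and none lower, beside 20.2% and 5.27%, and in myeloid cells none of 8 was higher and 1 lower (Aldoa), beside 12.1% and 18.1%. With every cell thinned to 2500 UMIs before cycling was called, the summed ratio was 1.61 (1.45 to 1.78) and 1.29 (1.10 to 1.504) in CD4 T cells and 1.59 (1.43 to 1.76) and 1.93 (1.62 to 2.29) in Ccl5 high CD8 T cells at 12 and 7 weeks. Thinning left 35 of 86 and 18 of 43 cycling CD4 T cells called cycling at 12 and 7 weeks. In Ccl5 high CD8 T cells it left 40 of 55 and 15 of 25. The rest were then counted as not cycling. Depth per cell and cycling moved together, and their parts in the ratios cannot be told apart.

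**Figure D3:**
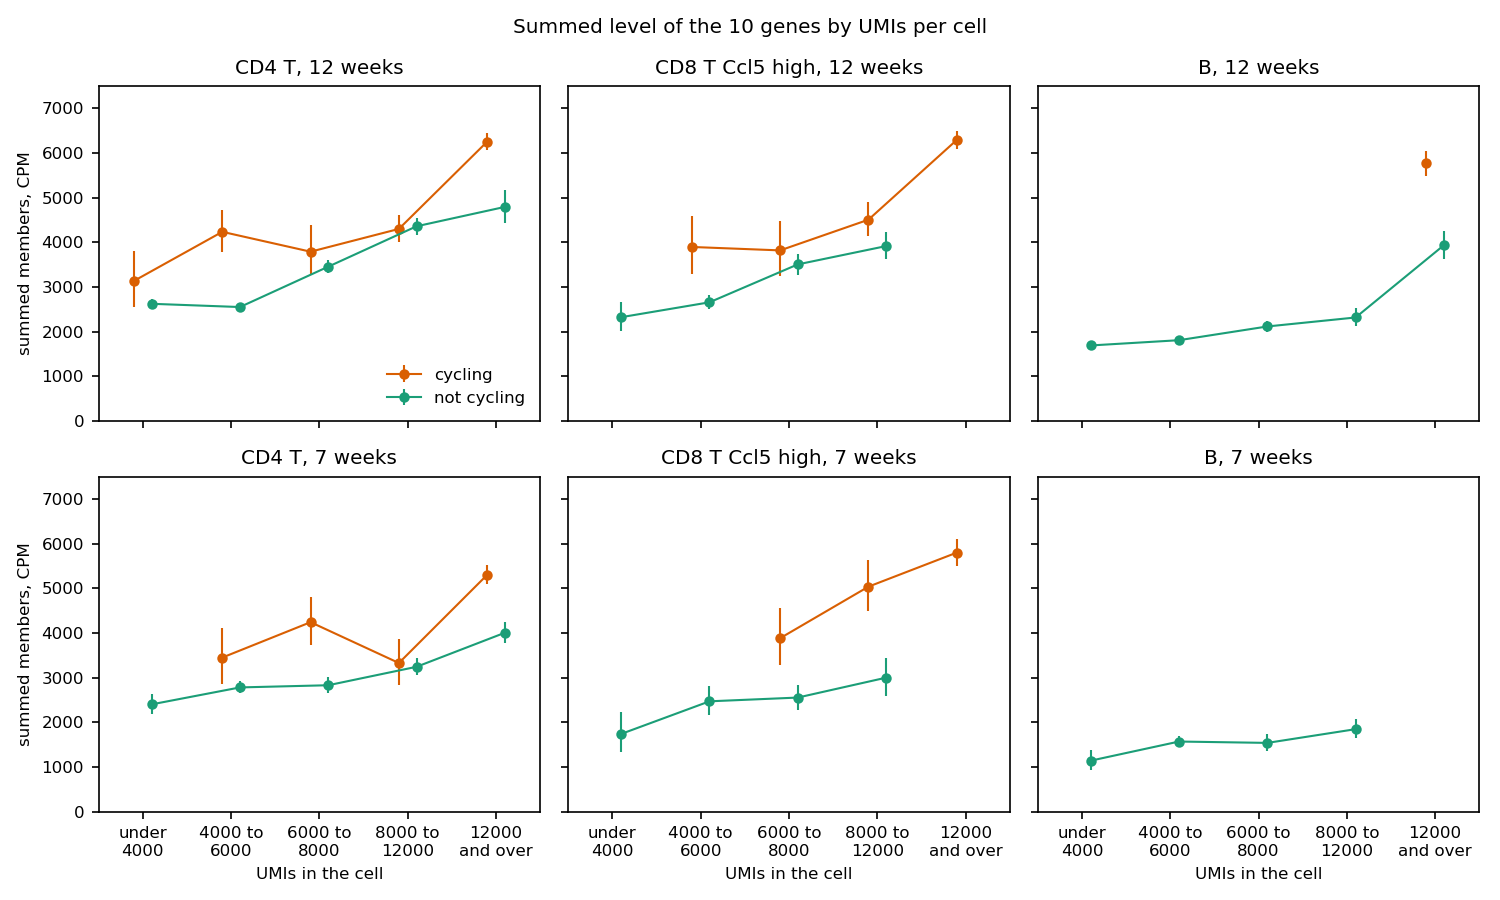
Summed level of the 10 genes (CPM, linear axis) against UMIs per cell in 5 steps, for cycling (orange) and other cells (green) of 3 classes at 12 weeks (top) and 7 weeks (bottom), for steps with 5 or more cells, with exact 95% counting intervals. The level is higher in the deepest cells in both states in most T cell panels, while cycling B cells were too few per step to show a course. At 8000 to 12000 UMIs cycling and other CD4 T cells at 12 weeks overlap at 4299 and 4358 CPM.

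Genes of neighbouring pathways, from lists chosen with earlier results of these data known, were set beside the members in CD4 T cells. Of all genes with 50 UMIs in these cells, 16.7% were at least 1.5-fold higher and 14.8% lower at 12 weeks, and 14.9% and 15.1% at 7 weeks. The counts of all these lists are over all CD4 T cells, of which the cycling ones were deeper, as given above. Of 18 respiratory chain genes, 10 were at least 1.5-fold higher in cycling cells at 12 weeks and 8 at 7 weeks, and none was lower. Cox5a, a subunit of cytochrome c oxidase, had 592 CPM in cycling and 321 CPM in other cells at 12 weeks (1.84, 1.67 to 2.03). Of 13 citrate cycle genes with 50 UMIs, 4 were higher at either age, among them Sdhb of succinate dehydrogenase (1.77, 1.51 to 2.06, at 12 weeks and 1.73, 1.39 to 2.15, at 7 weeks). Tkt, transketolase of the pentose phosphate path, had 269 CPM in cycling and 128 CPM in other cells at 12 weeks (2.10, 1.80 to 2.44), and 2 of 7 genes of its list were higher.

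Most other glycolytic enzymes stayed within 1.5-fold. Of 7 with 50 UMIs in CD4 T cells at 12 weeks, 1 was higher and 1, Ldhb, lower (0.432, 0.166 to 0.9497), while Gpi1, which makes fructose 6-phosphate, had 366 CPM in cycling and 295 CPM in other cells (1.24, 1.10 to 1.40). Pfkp, a phosphofructokinase, had 127 CPM and 118 CPM (1.08, 0.886 to 1.32). Slc16a1, the lactate carrier MCT1, was higher with few counts, 24 UMIs in cycling and 34 in other cells (2.44, 1.38 to 4.23). Txnip, which restrains glucose uptake, was lower at both ages, with 65.6 CPM in cycling and 213 CPM in other CD4 T cells at 12 weeks (0.308, 0.237 to 0.394) and 57.9 CPM and 145 CPM at 7 weeks (0.399, 0.271 to 0.572). Of the regulators, 3 of 11 were lower at 12 weeks and 2 of 6 at 7 weeks and none higher, beside 14.8% and 15.1% of genes lower. Of 7 genes often taken as steady references 1, Ppia, was higher at either age, beside 16.7% and 14.9% of genes higher. Hif1a, the oxygen-regulated transcription factor, had ratios of 1.17 (1.01 to 1.35) at 12 weeks and 0.710 (0.575 to 0.869) at 7 weeks.

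Among CD8 T cells that were not cycling, those with high Ccl5 had more of the summed transcripts than those with low Ccl5. The level was 3143 CPM in 160 Ccl5 high cells and 1989 CPM in 212 Ccl5 low cells at 12 weeks, a ratio of 1.58 (1.495 to 1.67). At 7 weeks it was 2712 CPM in 55 Ccl5 high and 2134 CPM in 67 Ccl5 low cells, a ratio of 1.27 (1.16 to 1.40). Median depth was close at either age, 5314.5 against 4948 UMIs at 12 weeks and 5915 against 5282 at 7 weeks. Ccl5 high cells carried the 5 plasmacytoid dendritic cell markers at a summed 149 CPM against 1057 CPM in Ccl5 low cells at 12 weeks, and at 194 against 737 CPM at 7 weeks. Of these, Siglech had 1 UMI in Ccl5 high and 145 UMIs in Ccl5 low cells at 12 weeks, the last in 5.66% of the cells, and 3 and 35 UMIs at 7 weeks. Among cells with a UMI of Cd3d, Cd3e or Cd3g the log2 ratio of Gapdh was 1.16 at 12 weeks and 0.54 at 7 weeks, beside 1.13 and 0.58 in all cells of the classes, and 3 and 1 members passed 1.5-fold as before. The 6 NK cell markers summed to 1174 CPM in Ccl5 high and 249 CPM in Ccl5 low cells at 12 weeks and to 902 and 245 CPM at 7 weeks, with 5 or 6 detected in each group, and their part in the ratios was not tested.

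Of the members with 50 UMIs, Gapdh had the largest ratio at 12 weeks and Pgam1 at 7 weeks. Gapdh had 1154 CPM in Ccl5 high and 527 CPM in Ccl5 low cells at 12 weeks (2.19, 1.98 to 2.42), and 993 and 663 CPM at 7 weeks, just under the mark (1.499, 1.27 to 1.77). Pgam1 had 165 CPM against 93.0 CPM at 12 weeks (1.77, 1.38 to 2.29) and 129 CPM against 66.8 CPM at 7 weeks (1.94, 1.17 to 3.25). Pkm was higher at 12 weeks, with 441 CPM against 278 CPM (1.58, 1.37 to 1.84), while at 7 weeks 338 CPM against 314 CPM gave an interval that included 1 (1.08, 0.829 to 1.40). Eno1 had ratios of 0.976 (0.802 to 1.19) and 1.13 (0.827 to 1.55), and Aldoa 1.43 (1.25 to 1.64) and 0.971 (0.753 to 1.25), at 12 and 7 weeks. Ldha had ratios of 1.24 (1.10 to 1.40) at 12 weeks and 1.17 (0.949 to 1.45) at 7 weeks, and Tpi1, with 54 UMIs in Ccl5 high and 45 in Ccl5 low cells at 12 weeks, a ratio whose interval included 1 (1.46, 0.962 to 2.21). Pgk1, Slc2a1 and Hk2 were too sparse to count at either age, with at most 18 UMIs in a group. Thus 3 of 7 members with 50 UMIs were past 1.5-fold at 12 weeks, where 17.9% of genes were higher and 7.75% lower, and 1 of 6 at 7 weeks, where 11.1% were higher and 5.9% lower. Counting cycling cells too, which were 25.6% of Ccl5 high and 3.20% of Ccl5 low cells at 12 weeks and 31.25% and 6.94% at 7 weeks, 6 of 8 members were higher at 12 weeks and 3 of 7 at 7 weeks, beside 24.0% and 20.1% of genes. In the 20 Ccl5 high and 17 Ccl5 low cells of 8000 to 15000 UMIs at 12 weeks none of 6 members with 50 UMIs passed in either direction, and the summed ratio was 1.21 (1.09 to 1.35). The share of all genes past the mark in these few cells is not given here. The Gapdh ratio was 1.45 (1.21 to 1.74) in those cells, and the Pgam1 ratio turned to 0.903 (0.547 to 1.49).

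Myeloid cells had a different make-up from CD4 T cells, with much more Hk2 and less Ldha. Hk2 encodes a hexokinase that sits on mitochondria. It had 207 UMIs in 147 myeloid cells and 23 UMIs in 713 CD4 T cells at 12 weeks, 116 CPM (101 to 133) against 6.33 CPM (4.01 to 9.50), a ratio of 18.3 (11.9 to 29.5). At 7 weeks it had 129 UMIs in 56 myeloid cells and 31 UMIs in 288 CD4 T cells, 180 CPM against 17.1 CPM, a ratio of 10.5 (7.08 to 16.2). Over the 13 other settings the ratio stayed between 5.48 and 38.4 at 12 weeks and between 5.74 and 11.8 at 7 weeks. The low ends come from counting cells that meet both rules in each class, which gave CD4 T cells 84 UMIs of Hk2 at 12 weeks and 55 at 7 weeks.

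Myeloid cells were deeper, with a median of 12057 UMIs against 4504 in CD4 T cells at 12 weeks and 11736 against 5429 at 7 weeks. Thinned to 2500 UMIs, 22.4% of myeloid cells and 0.916% of CD4 T cells had a UMI of Hk2 at 12 weeks, and 25.8% and 3.19% at 7 weeks. B cells had 0.490% and 2.52%. Unthinned, the shares were 43.5% in myeloid and 2.95% in CD4 T cells at 12 weeks, and 66.1% and 6.60% at 7 weeks. Among hexokinase UMIs (Hk1, Hk2 and Hk3), Hk2 held 76.4% (70.9 to 81.3) in myeloid cells and 10.3% (6.65 to 15.1) in CD4 T cells of the 12 week library. In the 7 week library its shares were 87.8% (81.3 to 92.6) in myeloid cells and 25.8% (18.3 to 34.6) in CD4 T cells. Hk1, the widely expressed hexokinase, was lower in myeloid cells, with 16.2 CPM against 54.8 CPM in CD4 T cells at 12 weeks (0.296, 0.193 to 0.439) and 15.4 CPM against 49.1 CPM at 7 weeks (0.313, 0.151 to 0.588).

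The myeloid class was mixed, and the subsets below leave out 2 cells at 12 weeks and 3 at 7 weeks. At 12 weeks Hk2 had 195 CPM (143 to 258) in 20 cells with 10 or more C1q UMIs, 124 CPM (106 to 145) in 107 cells that met the Cst3 rule alone without Siglech, and no UMI in 14 cells with 2 or more UMIs of Siglech, a plasmacytoid dendritic cell gene. That count of 0 in the Siglech cells allows up to 27.5 CPM. At 7 weeks it had 104 CPM (41.9 to 215) in 7 C1q cells, 215 CPM (177 to 257) in 41 Cst3 cells without Siglech, and no UMI in 4 Siglech cells, which allows up to 78.9 CPM. Endocrine markers summed to 28606 CPM in myeloid cells at 12 weeks and 8311 CPM at 7 weeks, and 4 cells and 1 cell that met the Cst3 rule gave over 5% of their UMIs to these markers. Those 5 cells held no UMI of Hk2 or Slc2a1, and without them the Hk2 ratio to CD4 T cells was 19.5 at 12 weeks and 10.9 at 7 weeks.

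Ldha had 394 CPM in myeloid and 663 CPM in CD4 T cells at 12 weeks (0.595, 0.546 to 0.647), and 347 and 639 CPM at 7 weeks (0.543, 0.471 to 0.623). Pgk1 was lower too, at 6.71 against 18.2 CPM (0.369, 0.182 to 0.689) and 16.8 against 31.4 CPM (0.534, 0.261 to 1.01). Tpi1, Pgam1 and Slc2a1 were past 1.5-fold higher in myeloid cells at 12 weeks, with ratios of 1.59 (1.32 to 1.92), 1.66 (1.41 to 1.94) and 1.63 (1.02 to 2.58), but not at 7 weeks, where they were 1.29, 1.16 and 1.17 and each interval included 1, with 12 UMIs of Slc2a1 in myeloid and 26 in CD4 T cells. In cells of 8000 to 15000 UMIs at 12 weeks the Tpi1 ratio turned to 0.662 (0.489 to 0.899) and that of Pgam1 was 1.08 (0.815 to 1.43). Gapdh (0.793, 0.744 to 0.845) and Aldoa (0.731, 0.666 to 0.801) were lower in myeloid cells without reaching 1.5-fold at 12 weeks, as at 7 weeks (0.736 and 0.734), and Eno1 had ratios of 0.992 (0.881 to 1.12) and 1.20 (1.01 to 1.42). Counts came to 4 of 10 members higher and 2 lower at 12 weeks, beside 22.2% and 25% of genes, and 1 of 9 higher and 3 lower at 7 weeks, beside 18.2% and 25%. The other lower gene at 7 weeks was Pkm, with 261.5 CPM in myeloid and 464 CPM in CD4 T cells (0.564, 0.478 to 0.661), and at 12 weeks its ratio was 0.703 (0.641 to 0.771). Within the range of 8000 to 15000 UMIs more members were past 1.5-fold lower in myeloid cells. At 12 weeks they were Gapdh (0.402, 0.364 to 0.444), Ldha (0.450, 0.394 to 0.514), Pkm (0.483, 0.418 to 0.557), Aldoa (0.539, 0.462 to 0.629) and Tpi1, 5 of 8 members with 50 UMIs, and Hk2 alone was higher, beside 20.6% of genes lower and 26.7% higher. At 7 weeks Gapdh (0.598, 0.507 to 0.702), Ldha (0.547, 0.435 to 0.682), Pkm (0.449, 0.336 to 0.592) and Aldoa (0.556, 0.425 to 0.722) were lower, 4 of 7, and again Hk2 alone was higher, beside 24.9% and 18.6% of genes.

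Of the list genes set beside them, Taldo1, transaldolase of the pentose phosphate path, had 809.5 CPM in myeloid and 209 CPM in CD4 T cells at 12 weeks (3.87, 3.54 to 4.23) and 608 and 211 CPM at 7 weeks (2.89, 2.51 to 3.32). Of that list, 4 of 7 genes were higher at 12 weeks and 4 of 6 at 7 weeks, and none lower, beside 22.2% of genes higher and 25% lower at 12 weeks and 18.2% and 25% at 7 weeks. Slc2a6, a GLUT family transporter, had 52 UMIs in myeloid and 3 in CD4 T cells at 12 weeks (35.2, 11.4 to 176). Mdh2, the mitochondrial malate dehydrogenase, had ratios of 3.52 (3.26 to 3.81) and 2.41 (2.12 to 2.75). Pfkp was lower, with 36.9 CPM in myeloid and 118 CPM in CD4 T cells at 12 weeks (0.314, 0.239 to 0.408) and 48.9 and 105 CPM at 7 weeks (0.464, 0.314 to 0.669).

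Over all cells that were not cycling, most members of most classes stayed within 1.5-fold between the ages. CD4 T cells summed to 3027 CPM at 12 weeks against 3034 CPM at 7 weeks (0.998, 0.966 to 1.03). Their median depth was 4504 UMIs at 12 weeks and 5429 at 7 weeks, and in 57 and 47 of them with 8000 to 15000 UMIs the sums were 4430 and 3409 CPM, a ratio of 1.299 (1.22 to 1.38). B cells summed to 1983 CPM at 12 weeks against 1546 CPM at 7 weeks (1.28, 1.21 to 1.36), and the ratio was 1.16 (1.08 to 1.25) in Ccl5 high CD8 T cells, 0.932 (0.862 to 1.01) in Ccl5 low CD8 T cells, 1.13 (1.03 to 1.24) in Ncr1+ cells and 1.04 (0.988 to 1.11) in myeloid cells. Over all cells B cells had the largest summed difference, but without the 5 highest cells of each group the ratio was 1.33 (1.22 to 1.45) in Ccl5 high CD8 T cells and 1.29 (1.21 to 1.37) in B cells. In B cells the 8 members with 50 UMIs had a median log2 ratio of 0.36, against 0.10 over all genes. Median depth in B cells was 4552 UMIs at 12 weeks and 5061.5 at 7 weeks. Markers of pancreatic cells outside the sort also differed: in CD4 T cells the 5 acinar markers summed to 162 CPM at 12 weeks against 12.1 CPM at 7 weeks and the 7 endocrine markers to 171 CPM at 12 weeks against 37.5 CPM at 7 weeks, and their part in the ratios was not tested.

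In B cells Tpi1 had 75.9 CPM (232 UMIs) at 12 weeks against 34.0 CPM (30 UMIs) at 7 weeks, a ratio of 2.23 (1.52 to 3.38), the only member past 1.5-fold there over all cells. In B cells of 8000 to 15000 UMIs Tpi1 had 32 UMIs at 12 weeks and 8 at 7 weeks, too few to count, and Ldha (1.78, 1.24 to 2.60) and Pgam1 (2.16, 1.26 to 3.87) passed. Over all B cells not cycling, Ldha (1.43, 1.22 to 1.67), Pkm (1.40, 1.18 to 1.67) and Aldoa (1.36, 1.19 to 1.56) had intervals above 1, and Eno1 (1.04, 0.873 to 1.25) and Slc2a1 (1.05, 0.634 to 1.82) did not. Gapdh (1.21, 1.09 to 1.34) lay above 1 too, and Pgam1 (1.15, 0.912 to 1.47) had an interval that included it. Hk2 had 8 UMIs at either age and Pgk1 28 and 7, too few to count. Of 4 other glycolytic enzymes with 50 UMIs, 3 were past 1.5-fold higher in B cells, beside 10.8% of all genes so measured. They were Hk1 (2.16, 1.03 to 5.24), the phosphofructokinase gene Pfkl (2.08, 1.20 to 3.84) and Pfkp (1.53, 0.932 to 2.65), whose interval included 1. Plasma cell markers summed to 951 CPM at 12 weeks and 681 CPM at 7 weeks in these cells, and their part in the B cell ratios was not tested.

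Hk2 was the member whose ratio lay below 1 in all 6 classes, between 0.288 and 0.906, but it had 50 UMIs in CD4 T and myeloid cells alone. CD4 T cells had 6.33 CPM of it (23 UMIs) at 12 weeks against 17.1 CPM (31 UMIs) at 7 weeks, a ratio of 0.370 (0.206 to 0.656). With cells that met more than 1 class rule counted, that ratio was 0.779 (0.548 to 1.12). In myeloid cells it had 116 CPM at 12 weeks and 180 CPM at 7 weeks (0.642, 0.513 to 0.806), and thinned to 2500 UMIs per cell the ratio was above 1, at 1.21 (0.703 to 2.18). The C1q cells were higher and the Cst3 cells without Siglech lower at 12 weeks than at 7 weeks, as given above, and the intervals of the C1q cells overlapped. Pgk1 in CD4 T cells had 18.2 CPM at 12 weeks and 31.4 CPM at 7 weeks (0.578, 0.399 to 0.839), and its ratio stayed between 0.534 and 0.738 over the other settings.

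Over the 6 classes the ratios of Aldoa ran from 1.01 to 1.496 and those of Ldha from 1.04 to 1.43, none past 1.5-fold. The largest of these was Aldoa in Ccl5 high CD8 T cells, with 509.8 CPM at 12 weeks against 341 CPM at 7 weeks (1.496, 1.22 to 1.85). At the low ends the intervals of the ages overlapped. Aldoa in Ccl5 low CD8 T cells had 356 CPM (322 to 393) at 12 weeks and 351 CPM (296 to 414) at 7 weeks. Ldha in CD4 T cells had 663 CPM (637 to 690) at 12 weeks and 639 CPM (603 to 677) at 7 weeks. Tpi1 lay between 0.760 in Ccl5 low CD8 T cells and its value in B cells, Eno1 between 0.824 and 1.04, Gapdh between 0.795 and 1.21, Pgam1 between 0.879 and 1.39, Pkm between 0.886 and 1.40, and Slc2a1 had 50 UMIs in CD4 T (0.864, 0.522 to 1.46) and B cells.

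Few members passed 1.5-fold between the ages. No member of CD4 T cells was at least 1.5-fold higher and 2 of 10 (Pgk1 and Hk2) were lower at 12 weeks, beside 4.22% of genes higher and 8.35% lower. In CD4 T cells of 8000 to 15000 UMIs, 1 of 7 members, Tpi1 (2.28, 1.49 to 3.55), was higher and none lower, beside 6.83% and 8.96% of genes, and Gapdh (1.37, 1.24 to 1.52), Pkm (1.39, 1.18 to 1.63) and Ldha (1.28, 1.12 to 1.47) had intervals above 1. In B cells 1 of 8 was higher and none lower, beside 10.8% and 6.68%. In myeloid cells none was higher and 1 of 8 lower, beside 10.1% and 8.76%. None of 7 members passed in either direction in Ccl5 high CD8 T cells (11.3% higher and 6.13% lower), in Ccl5 low CD8 T cells (7.42% and 8.68%) or in Ncr1+ cells (6.41% and 6.99%).

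**Figure D4:**
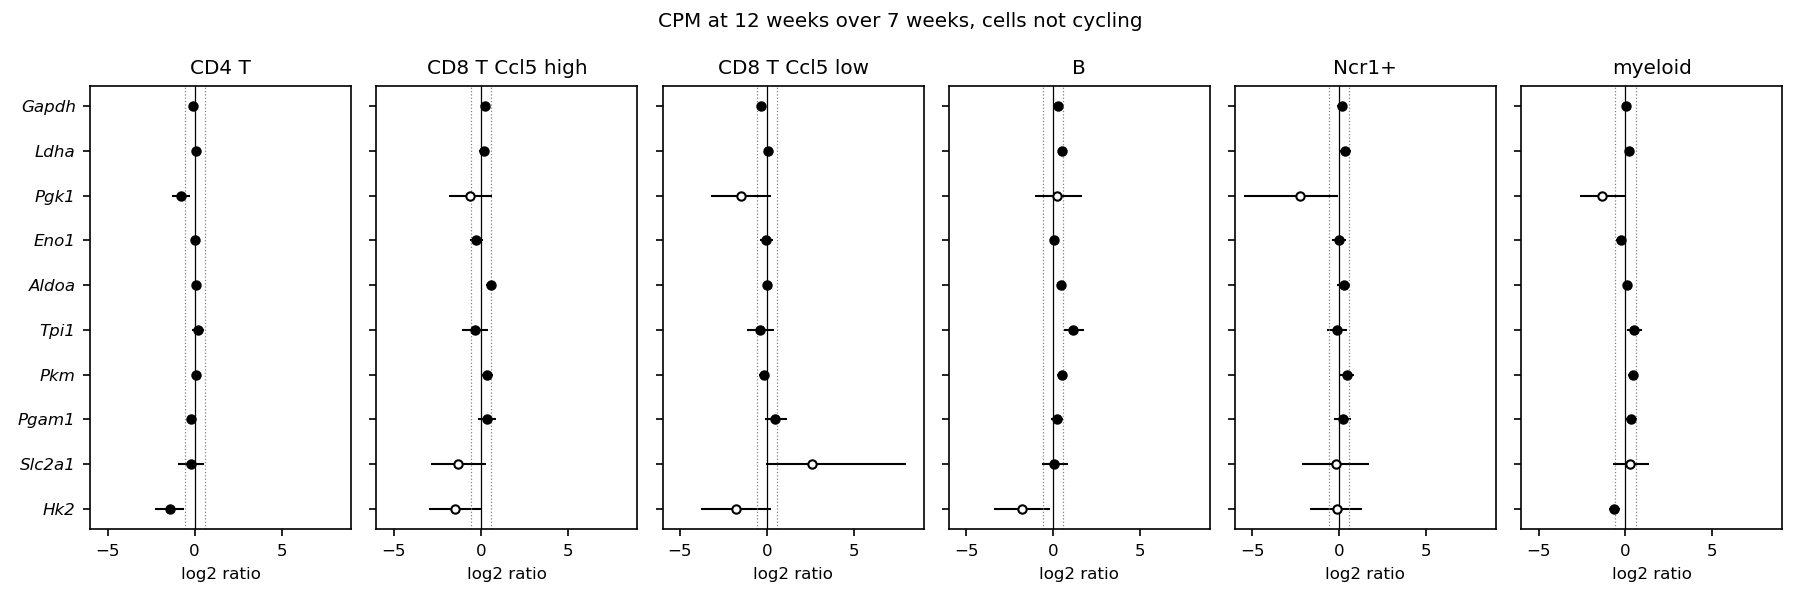
Log2 ratio of CPM at 12 weeks over 7 weeks, per gene (rows) and class (panels), in cells not cycling, with exact 95% counting intervals. Filled points have 50 or more UMIs over both ages, dotted lines mark 1.5-fold, and among filled points Tpi1 in B cells lies above and Hk2 in CD4 T and myeloid cells and Pgk1 in CD4 T cells below.

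The members differed in how closely each followed the others. Over 18 groups of class, state and age with 10 or more cells, the log2 level of Gapdh had a Pearson r of 0.96 with the sum of the other members, Pkm 0.96, Ldha 0.91, Eno1 0.84, Tpi1 0.80, Pgam1 0.74, Aldoa 0.73 and Pgk1 0.71, while Hk2 had -0.05 and Slc2a1 -0.43. Groups of 1 library share its depth and free RNA, and cycling groups are deeper, so these values describe the groups and carry no test. Among 5367 other genes with 500 or more UMIs, the 10 most like the summed members were Oaz1 (0.96), Cmc2, Ube2l3, Atp5f1, Hmgb2, Ezh2, Dtl, Ndufb9, Atp5j and Atp5c1 (0.95).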

How the data were processed

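UMI counts per gene and barcode were measured in 1 library per age. The authors deposited whole-number counts, not normalized. The submitters' processing notes name Cell Ranger 1.3.1 and build mm10; which annotation was used is not given in the sources used here. Both files held 19288252 UMIs in 2812 barcodes at 12 weeks and 8701184 UMIs in 1113 barcodes at 7 weeks, with at least 3031 and 2587 UMIs per barcode.

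Barcodes with at least 200 genes and at most 10% mitochondrial UMIs were kept (8 and 4 removed). A Scrublet-style score (simulated doublets, 2000 variable genes, 30 components) ranked barcodes, and a share of 0.8% for each 1000 barcodes of the library was removed from the top (63 and 10, of which 17 and 4 were cycling). The class rules left 506 and 243 cells in no class and 24 and 11 CD8 T cells between the Ccl5 limits. UMIs were summed per library and class and given as CPM with exact Poisson intervals, ratios with exact conditional binomial intervals and shares with Clopper-Pearson intervals. A gene was counted as higher or lower at 1.5-fold or more with at least 50 UMIs over both groups, and groups needed 10 cells. A count of 0 is given with the upper bound of its Poisson interval. No test was run, because cells of 1 library are not replicates; the summing and intervals were checked on simulated counts.

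All 10 members are named in each comparison; the other lists were limited to 4 genes each, chosen by highest UMI count or by the ratio bound lying furthest from 1, and some of these are printed. The genes most like the members were ranked by Pearson r of log2(CPM + 10). The members, lists and markers were chosen with earlier results of these data known. Loci, and the transcripts searched for copies, are from a GENCODE annotation on build GRCm38, the assembly also named mm10. Of the alternatives, 10 were planned and 3 were added after seeing the data (cells of 8000 to 15000 UMIs, T cells with a Cd3 UMI, and myeloid cells without those over 5% endocrine UMIs). Python 3.11.15, numpy 2.4.6, scipy 1.17.1, pandas 2.3.3, scikit-learn 1.9.0 and matplotlib 3.10.9 were used.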

Additional observations from a re-analysis of the deposited data

How the results depend on the processing

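The counts of members past 1.5-fold, here with higher and lower added together, were recomputed under 13 alternatives. Of these, 178 stayed within 1.5 times the value given and 41 did not. A count can stay while its members change, as for myeloid over CD4 T at 12 weeks. Of 838 recomputed values of the 70 ratios past 1.5-fold, 10 (of 9 ratios) changed sign and are given below as reversed. Of 942 values of the 76 ratios with 50 UMIs inside that mark, 83 (of 39 ratios) changed sign, and of 401 values of the 34 ratios with fewer UMIs, 27 (of 14). Leaving out those 10, 257 values lay outside the counting interval of the ratio over all cells. The cause was not tested unless the alternative itself leaves out counts. No paired analysis was possible because each age has 1 library and no replicate, so no replicate could be left out either. In cells of 8000 to 15000 UMIs the counts were 4 over all classed cells at 7 weeks (8 in all cells), 1 in CD4 T at 12 weeks (7) and 3 at 7 weeks (6), 1 in Ccl5 high CD8 T (6) and 1 in myeloid cells at 12 weeks (6), all cycling over not, 0 for Ccl5 high over low at 12 weeks (3), and between the ages 1 in CD4 T (2), 2 in B (1) and 2 in myeloid cells (1). The 1 in myeloid cells was Aldoa, lower, where the 6 in all cells were higher. The 2 in myeloid cells between the ages were Tpi1, higher, and Hk2, lower. Log2 ratios past 1.5-fold that reversed there were 0.36 for Slc2a1 in CD4 T at 12 weeks, -0.12 for Pgk1 and -0.43 for Pgam1 in CD4 T at 7 weeks and -0.17 for Eno1 in Ccl5 high CD8 T at 12 weeks (cycling over not), -0.15 for Pgam1 (Ccl5 high over low, 12 weeks) and -0.59 for Tpi1 (myeloid over CD4 T, 12 weeks). Thinned to 2500 UMIs, cycling counts were 5 over all classed cells at 7 weeks, 4 and 3 in CD4 T and 3 in Ccl5 high CD8 T at 7 weeks, with 5 for Ccl5 at 12 weeks (3), 1 for myeloid over CD4 T at 7 weeks (4), and between the ages 1 in CD4 T and 1 in Ncr1+ (0); Pgam1 reversed at -0.33 over all classed cells and -0.32 in CD4 T at 7 weeks, Pgk1 at -0.46 in CD4 T at 12 weeks, and Hk2 at 0.28 between the ages in myeloid cells. With cells weighted equally, the myeloid cycling count was 1, Ccl5 at 12 weeks 5, and Ccl5 high CD8 T between the ages 1 (0). Without the 5 highest cells per group they were 1 (Aldoa, lower), 5 and 2. With cycling at 1 or more UMIs, the myeloid cycling count was 3, and between the ages CD4 T had 1, Ccl5 high CD8 T 2 and Ccl5 low CD8 T 1 (0). With cycling at 4 or more, Ccl5 at 7 weeks had 3 (1) and myeloid between the ages 0, as without doublet removal. With cycling cells kept in, Ccl5 had 6 and 3, and B between the ages 2. With no minimum but 1 UMI, Ccl5 had 6 and 4, and between the ages the counts were 3, 3, 2, 1 and 2 in Ccl5 high and low CD8 T, B, Ncr1+ and myeloid cells. With class rules as written, CD4 T between the ages had 1. Groups under 10 cells gave no value under an alternative.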
